A study of Homo sapiens with 54 samples.

Results

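The 9 genes described here carry out or control the making of fatty acids: SREBF1, ACLY, ACACA, ACACB, FASN, SCD, ELOVL6, FADS2 and ACSL3. They were chosen by name, and all 9 were present among the 25435 genes of the deposited table. RNA was measured in 6 established human lines of high-grade serous ovarian cancer, a pair from each of 3 patients. PEA1, PEO1 and PEO14 are labelled platinum sensitive, and their respective partners PEA2, PEO4 and PEO23 platinum resistant. Each line was sampled untreated and after 8 h and 24 h in carboplatin (80 µM by the treatment label, while the series text writes mM), a chemotherapy agent that damages DNA by binding platinum to it, with 3 replicates a group, which gave 54 libraries in 18 groups. All cultures grew in RPMI medium with serum and were plated 48 h before treatment. The untreated cultures carry the label untreated, whereas the series text speaks of vehicle harvested at 24 h. Every line is a single established culture, so a difference within a pair is a difference between 2 lines.

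Values are given as TPM, in which each gene's share of the transcripts is corrected for its length, rescaled between libraries by the median ratio over 8287 genes. How deeply a library was sequenced cannot be read from TPM and is unknown. Of the 54 libraries, 12 listed fewer than 12000 genes above 0 and were set aside, among them all 3 untreated PEO23 libraries and untreated PEA1 replicates 2 and 3. The remaining 42 libraries listed 12877 to 17133 genes and form 17 groups, of which 3 have a single library (24 h PEO4, 24 h PEO14 and untreated PEA1) and are assumed to vary like the others. In bulk RNA, fewer expressing cells and less RNA per cell cannot be told apart. The epithelial keratins KRT8 and KRT18 were high in every line, with line medians of 231 to 1987 and 691 to 3989 TPM, and the Müllerian factor PAX8 had medians of 18.2 to 122. EPCAM and CDH1 stood at only 6.44 and 0.2 TPM in PEA1. The serous markers WT1 and MUC16 were well expressed in PEO4 alone (medians of 58.6 and 138, against at most 3.15 and 2.77 in the other lines). MSLN and ESR1 of the same list were also highest in PEO4, with medians of 195 and 30.9. SOX17 went the other way, with medians of 0 in PEO4, PEO1 and PEA1, 74.1 in PEA2, 118 in PEO14 and 20.7 in PEO23. The leukocyte genes CD3E and LYZ, the endothelial PECAM1 and the adipocyte genes LEP, PLIN1, CIDEC and FABP4 had a median of 0 in each line, and the leukocyte gene PTPRC had at most 0.835. Other markers of such cells were not low: the endothelial CDH5 had a median of 171 in PEA2 (at most 3.78 in the other lines), the macrophage gene CD68 had 3.44 to 53.8, and the fibroblast gene COL1A1 had 20.4 in PEO14.

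Fatty acid synthesis turns citrate carbon into membrane and storage lipid. ACLY splits citrate into acetyl-CoA, the carboxylases encoded by ACACA and ACACB make malonyl-CoA from it, and fatty acid synthase (FASN) builds palmitate. ELOVL6 elongates palmitate, SCD and FADS2 insert double bonds, and ACSL3 joins fatty acids to coenzyme A for lipid droplet and phospholipid synthesis, while SREBF1 encodes a membrane-bound transcription factor, freed by proteolysis, that switches many of these genes on. FASN is often abundant in ovarian and other carcinomas.

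FASN had the highest untreated median of the 9 genes and differed widely between lines. Its untreated values were 363, 642 and 178 rescaled TPM in PEO4, 245, 352 and 199.8 in PEO1, and 221, 179.9 and 138 in PEO14. PEA1 stood at 113 in its 1 kept library, and PEA2 at 35.7, 35.7 and 33.6. The order by mean was therefore PEO4 (394 ± 234, SD, n = 3), PEO1 (266 ± 78.2, SD, n = 3), PEO14 (179.6 ± 41.8, SD, n = 3), PEA1 and PEA2 (35.0 ± 1.22, SD, n = 3). Libraries of PEO4, PEO1 and PEO14 overlapped, so neighbours in that order did not separate, whereas all 3 PEA2 libraries lay below every other untreated library. ACLY was more even, from 61.0 to 142 over the 13 untreated libraries, with a median of 119. Because TPM is adjusted for length, levels can be compared between genes: the untreated medians were 179.9 for FASN, 119 for ACLY, 65.3 for SCD, 44.6 for FADS2, 20 for SREBF1, 18.6 for ACACA, 13.4 for ACSL3, 4.40 for ELOVL6 and 1.33 for ACACB. ACACB was the scarcest member and was listed at 0 in 4 of the 42 libraries, all of them PEA2.

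**Figure D1:**
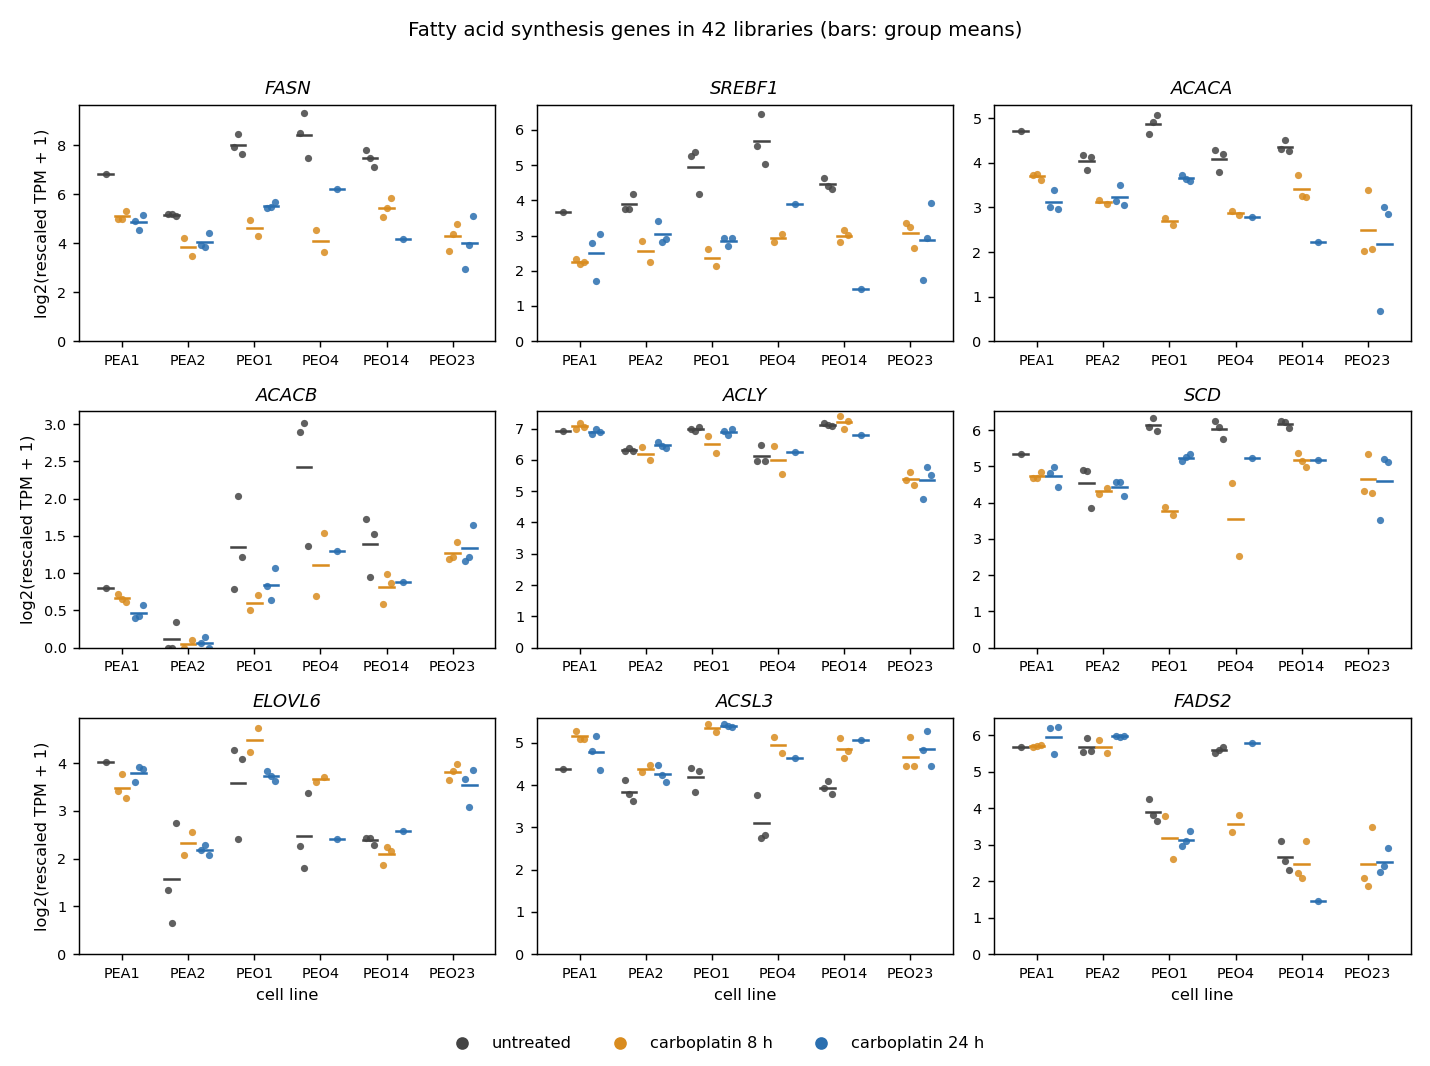
Levels of the 9 genes in 42 libraries, as log2(rescaled TPM + 1) on the vertical axis against cell line on the horizontal axis. Each point is 1 library, each bar a group mean, and colours give untreated, 8 h and 24 h cultures. Untreated FASN, SREBF1 and ACACA points lie above the treated points of the same line, ACSL3 points mostly below, and ACLY points at about the same height. Untreated PEO23 has no kept library.

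RefSeq promoter windows of 250 bases before the transcription start (build GRCh38.p14) were at hand for 8 of the 9 genes, FASN being the one without an entry. Those of SREBF1, SCD and ACSL3 are shown because the first and second of these genes fell after carboplatin and ACSL3 rose. They lie at chr17:17836987-17837236 (minus strand), chr10:100346983-100347232 (plus strand) and chr2:222860786-222861035 (plus strand). Letters run 5′ to 3′ and end at the base before the start. Capitals mark matches to the CCAAT box (CCAAT) and the GC box (GGGCGG) on either strand.
SREBF1: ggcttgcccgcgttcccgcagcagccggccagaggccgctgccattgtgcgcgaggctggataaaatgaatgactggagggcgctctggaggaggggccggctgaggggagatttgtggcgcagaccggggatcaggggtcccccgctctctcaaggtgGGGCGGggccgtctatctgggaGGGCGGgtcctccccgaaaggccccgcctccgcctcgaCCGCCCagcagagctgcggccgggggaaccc
SCD: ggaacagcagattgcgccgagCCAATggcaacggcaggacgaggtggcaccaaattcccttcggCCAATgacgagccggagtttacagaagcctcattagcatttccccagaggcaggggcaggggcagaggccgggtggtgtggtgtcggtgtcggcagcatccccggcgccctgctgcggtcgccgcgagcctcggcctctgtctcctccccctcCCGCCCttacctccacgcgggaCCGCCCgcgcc
ACSL3: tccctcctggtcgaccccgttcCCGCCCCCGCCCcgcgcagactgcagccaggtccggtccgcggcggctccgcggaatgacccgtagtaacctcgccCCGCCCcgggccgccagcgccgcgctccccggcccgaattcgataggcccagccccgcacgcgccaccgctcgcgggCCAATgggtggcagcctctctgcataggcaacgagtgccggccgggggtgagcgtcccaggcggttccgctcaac
SREBF1 holds 3 GC boxes and no CCAAT box, SCD holds CCAAT boxes at 229 and 186 bases before the start and 2 GC boxes, and ACSL3 holds 1 CCAAT box at 75 and 3 GC boxes, of which those at 228 and 222 bases before the start adjoin. GC content was 71.2%, 68% and 75.2%. A sterol regulatory element (TCACNCCAC) and an E-box (CACGTG) were searched on both strands as well and matched in none of the windows of the 8 genes, which says only that these letters are not in these windows. Over all 35116 RefSeq promoters of the same length, 0.883% hold that sterol element, 6.34% the E-box, 32.0% a CCAAT box and 42.6% a GC box. The 3 windows were picked by the changes of their genes, whereas the matches only describe the letters and were not tested against the expression values.

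The main comparison asked how carboplatin changed these genes within each line. FASN, SREBF1, ACACA and SCD fell and ACSL3 rose, mainly in PEO1, PEO4 and PEO14, while ACLY passed the test in no line at either time. At 8 h, limma called 18 of 45 gene and line values at an adjusted p under 0.05, 14 of them lower and 4 higher. By line the calls were 5 of 9 in PEO1, where 41.9% of all 17989 tested genes were called, 8 of 9 in PEO4 (53.5% of all genes), 4 of 9 in PEO14 (30.0%), 1 of 9 in PEA2 (14.3%) and 0 of 9 in PEA1 (5.90%, with 3 members at an unadjusted p under 0.05). At 24 h, 13 of 45 values were called, 10 lower and 3 higher: 4 of 9 in PEO1 (38.6%), 3 of 9 in PEO4 (19.9%), 5 of 9 in PEO14 (36.1%), 1 of 9 in PEA1 (6.01%) and 0 of 9 in PEA2 (17.3%, with 3 members at an unadjusted p under 0.05). With all 54 libraries in the fit the counts were 5 and 8 of 45. With only the compared groups in the fit they were 14 and 13, but 8 of the 18 calls at 8 h (5 of them in PEO4) and 5 of the 13 at 24 h were lost, among them all 3 in PEO4 at 24 h: FASN (adjusted p = 0.554), SREBF1 (adjusted p = 0.553) and ACSL3 (adjusted p = 0.592). The share of members called is near that of all genes in several lines, since treated and untreated libraries differed widely. The median member changed by -0.75, -1.32 and -0.58 (log2) in PEO1, PEO4 and PEO14 at 8 h, against -0.15, -0.24 and -0.16 for all genes, and by -0.76, -0.80 and -1.0 at 24 h against -0.12, -0.10 and -0.27.

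Other properties moved with treatment. The share of TPM held by 81 ribosomal protein genes was 7.55% to 14.6% in kept untreated and 14.7% to 24.9% in kept treated libraries. Of 378 olfactory receptor genes, 19 to 44 were listed above 0 in kept untreated libraries against 4 to 17 in kept treated ones. The 12 set-aside libraries held 1.05% to 24.2% and listed 0 to 22. Of 6 Müllerian and serous markers 1 to 4 fell in each of the 5 lines at each time, and of 5 epithelial markers 4 rose in PEO14 at 8 h and at most 1 in any other comparison. Of the other lists of cell markers, 1 fibroblast marker rose in PEO14 at each time and 1 adipocyte marker in PEO4 at 24 h. The part of these in the results was not tested. Untreated cultures had lower passage numbers than treated ones without overlap in PEA1, PEA2, PEO1 and PEO4 (in PEO1, 9 to 11 against 12 to 14), so there passage and treatment cannot be told apart. In PEO14 the passages overlapped, with 20 to 22 against 21 to 25.

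**Figure D2:**
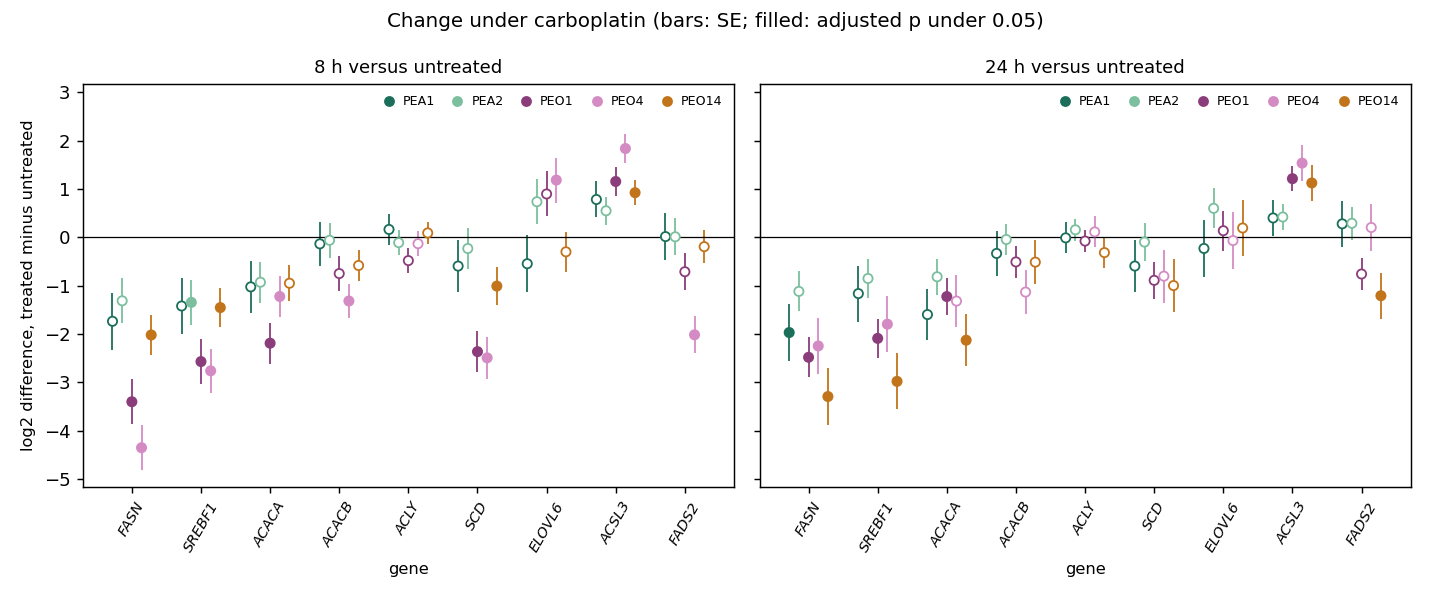
Log2 difference between treated and untreated cultures for each gene, on the log2(rescaled TPM + 1) scale, in 5 lines at 8 h (left) and 24 h (right). Points are estimates, bars the standard error, and filled points passed an adjusted p under 0.05. FASN reaches -4.35 in PEO4 at 8 h and ACSL3 1.83 in the same line, and ACLY stays near 0.

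FASN fell in PEO1, PEO4 and PEO14 at both times. In PEO1 its rescaled TPM went from 245, 352 and 199.8 without drug to 29.8 and 18.7 at 8 h, and to 42.9, 43.5 and 50.6 at 24 h. PEO4 went from 363, 642 and 178 to 22.5 and 11.3 at 8 h, and its 1 kept library at 24 h stood at 72.3. PEO14 went from 221, 179.9 and 138 to 32.5, 42.3 and 56.9 at 8 h and to 17.1 in the 1 kept library at 24 h. In each of these lines the highest treated library lay below the lowest untreated library. As log2(rescaled TPM + 1), a scale that makes changes of low values look smaller, the differences at 8 h were -3.40 ± 0.46 in PEO1 (SE, adjusted p = 1.72e-06, 10.5-fold), -4.35 ± 0.46 in PEO4 (adjusted p = 1.08e-08, 20.4-fold) and -2.02 ± 0.42 in PEO14 (adjusted p = 0.000432, 4.05-fold). At 24 h they were -2.48 ± 0.42, -2.25 ± 0.59 and -3.29 ± 0.59 (adjusted p = 3.07e-05, 0.00706 and 8.58e-05).

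FASN was also lower in each treated library of the PEA pair. PEA1 held 113 without drug, 31.1, 30.5 and 38.4 at 8 h and 28.9, 22.4 and 34.3 at 24 h. PEA2 went from 35.7, 35.7 and 33.6 to 17.8 and 10.2 at 8 h and to 14.1, 13.2 and 20.2 at 24 h. Of these only PEA1 at 24 h passed the test (-1.97 ± 0.59, adjusted p = 0.0406), and the call was lost without PEA1 24 h replicate 1 (adjusted p = 0.0744) or replicate 2 (adjusted p = 0.0969). The others were -1.74 ± 0.59 in PEA1 at 8 h (adjusted p = 0.0786) and -1.31 ± 0.46 and -1.12 ± 0.42 in PEA2 (adjusted p = 0.0555 and 0.0619). The 2 set-aside untreated PEA1 libraries bracket the kept one, with 337 and 47.7 deposited TPM. PEO23 held 11.8, 19.7 and 26.4 at 8 h and 6.70, 14.4 and 34.1 at 24 h, of which 6.70 was the lowest value of any kept treated library.

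SREBF1, the transcription factor of the pathway, fell in 4 of 5 lines at 8 h. Its rescaled TPM went from 37.4, 40.3 and 17.0 to 5.11 and 3.36 in PEO1 (-2.57 ± 0.46, adjusted p = 4.93e-05). PEO4 went from 45.9, 87.0 and 31.4 to 5.98 and 7.18 (-2.76 ± 0.46, adjusted p = 9.09e-06), and PEO14 from 24.1, 20 and 18.8 to 6.02, 8.01 and 7.08 (-1.45 ± 0.41, adjusted p = 0.00744). In these lines no treated library reached the lowest untreated one. PEA2 went from 12.4, 12.6 and 17.1 to 6.21 and 3.77, a call at the edge of the threshold (-1.34 ± 0.46, adjusted p = 0.0463) that was lost when any 1 of its 5 libraries was left out (adjusted p = 0.0638 to 0.424). PEA1 held 11.8 untreated and 3.54 to 4.04 at 8 h, which did not pass (adjusted p = 0.168). At 24 h SREBF1 was lower in PEO1 (-2.09 ± 0.41), PEO14 (-2.98 ± 0.58, 1 treated library at 1.78) and PEO4 (-1.80 ± 0.58, 1 treated library at 13.7, adjusted p = 0.0271), the last of which was lost without PEO4 untreated replicate 2 (adjusted p = 0.0863).

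SREBF2, which encodes the related factor that mainly drives sterol genes, fell in 5 of 5 lines at both times, by -1.0 ± 0.33 in PEA2 to -2.79 ± 0.33 in PEO1 at 8 h and by -0.87 ± 0.29 in PEA2 to -2.88 ± 0.41 in PEO14 at 24 h (highest adjusted p = 0.0376). Its lowest untreated library, at 11.1 rescaled TPM, lay above its highest treated library, at 9.23, over all lines together. The ratio of SREBF1 to SREBF2 within a library had a median of 0.924 in untreated and 0.916 in treated libraries and overlapped in each of the 5 lines.

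Of the enzymes ahead of FASN, ACACA was lower in all kept treated libraries than in the untreated ones, and ACLY was called in no line. ACACA ranged from 12.9 to 32.8 rescaled TPM over the 13 untreated libraries and from 0.604 to 12.4 over the 29 treated ones, so the groups did not overlap even across lines. How many of all genes separate in this way, across or within lines, was not counted. The separation of ACACA, of SREBF2 above, or of any member within a line therefore has no background beside it. ACACA passed the test in PEO1 at 8 h (23.9, 29.3 and 32.8 against 5.83 and 5.11, -2.19 ± 0.42, adjusted p = 0.000124) and at 24 h (12.2, 11.5 and 11.1, -1.22 ± 0.38, adjusted p = 0.0107). It also passed in PEO14 at 24 h (18.9, 21.7 and 18.1 against 3.70 in 1 library, -2.13 ± 0.53, adjusted p = 0.00243) and in PEO4 at 8 h (18.6, 12.9 and 17.5 against 6.58 and 6.10, adjusted p = 0.0151). The PEO4 call was lost without either treated library (adjusted p = 0.0527 without replicate 1 and 0.0810 without replicate 2). In the other 6 line and time combinations the differences were -0.82 to -1.60 and did not pass.

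ACACB, the second carboxylase, whose product restrains fatty acid entry into mitochondria, was at or below 7.11 rescaled TPM throughout. It was called only in PEO4 at 8 h, from 6.44, 7.11 and 1.57 to 0.611 and 1.89, where the groups overlapped and the call (-1.32 ± 0.36, adjusted p = 0.00285) was lost without PEO4 8 h replicate 1 (adjusted p = 0.0991). ACLY differed by -0.48 to 0.16 at 8 h and by -0.32 to 0.16 at 24 h, with no call. In PEO1, for example, it stood at 125, 119 and 130.1 rescaled TPM untreated, 108 and 73.5 at 8 h and 121, 109 and 125 at 24 h. This evenness rests on the rescaling. Deposited ACLY in PEO1 went from 192, 168 and 207 TPM untreated to 85.8 and 18.8 at 8 h. In PEO14 it went from 203, 205 and 204 to 62.8 in the 1 kept library at 24 h. The median of all genes without rescaling shifted by -1.14 and -1.12 (log2) there.

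SCD, the desaturase that makes oleate from stearate, fell in the same lines as FASN at 8 h. PEO1 went from 67.0, 79.4 and 62.4 rescaled TPM to 13.8 and 11.6 (-2.36 ± 0.43, adjusted p = 6.56e-05). PEO4 went from 75.3, 66.6 and 53.0 to 22.2 and 4.82 (-2.49 ± 0.43, adjusted p = 1.63e-05). PEO14 went from 75.9, 73.4 and 65.3 to 40.7, 34.4 and 30.6 (-1.01 ± 0.39, adjusted p = 0.0470), a call that was lost without any 1 of its 6 libraries (adjusted p = 0.0681 to 0.122). The groups did not overlap in these 3 lines. At 24 h SCD passed in none of the 5 lines, with 34.3, 37.1 and 39.5 in PEO1 (-0.89 ± 0.39, adjusted p = 0.0679) and differences of -0.10 to -1.0 over the lines.

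FADS2, which desaturates essential fatty acids, changed in single lines only. PEO4 went from 44.6, 47.0 and 49.6 to 9.08 and 13 rescaled TPM at 8 h (-2.01 ± 0.38, adjusted p = 5.02e-05) and stood at 54.3 in the 1 kept library at 24 h. The set-aside PEO4 libraries held 44.9 deposited TPM at 8 h and 100.7 and 57.8 at 24 h, and with all 54 libraries the 8 h call was lost. PEO14 was lower at 24 h (7.59, 4.85 and 3.95 against 1.72, adjusted p = 0.0489), which was lost without PEO14 untreated replicate 1 (adjusted p = 0.136) or replicate 2 (adjusted p = 0.0608). In PEA1 and PEA2 FADS2 stayed between 43.3 and 74.1 in every kept library. ELOVL6 was called higher only in PEO4 at 8 h (3.84, 2.47 and 9.34 against 11.1 and 12.2, 1.18 ± 0.47, adjusted p = 0.0327), and this was lost in 4 of 5 cases when 1 library was left out (adjusted p = 0.0807 to 0.157) and turned to -0.24 without rescaling.

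ACSL3 was the member that rose. In PEO1 it went from 20.3, 13.4 and 19.2 rescaled TPM to 42.9 and 37.0 at 8 h (1.15 ± 0.29, adjusted p = 0.00220) and 42.4, 41.6 and 40.7 at 24 h (1.21 ± 0.26, adjusted p = 0.000571). PEO4 went from 12.7, 5.73 and 6.07 to 34.5 and 25.9 at 8 h (1.83 ± 0.29, adjusted p = 5.61e-06) and 24.1 at 24 h (1.53 ± 0.37, adjusted p = 0.00396). PEO14 went from 14.2, 16.3 and 12.8 to 33.9, 24.0 and 27.3 at 8 h (0.92 ± 0.26, adjusted p = 0.00809) and 32.4 at 24 h (1.12 ± 0.37, adjusted p = 0.0185). In each of these lines the treated libraries lay above the untreated ones. The PEO14 call at 8 h was lost without PEO14 8 h replicate 1 (adjusted p = 0.0542). In PEA1 and PEA2 the differences of 0.40 to 0.78 did not pass. All 6 ACSL3 calls were lost without rescaling, where the median of all genes itself shifted by -1.14 in PEO1 at 8 h and -1.12 in PEO14 at 24 h, and ACSL3 then differed by -0.50 and -0.20 there.

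Ratios of members within a library do not depend on the scaling, although they show unequal change and not which gene moved. FASN stood at a median of 1.54 times ACLY in 13 untreated libraries (range 0.434 to 7.30) and 0.260 times in 29 treated ones (range 0.151 to 0.967). In 5 of 5 lines the untreated and treated ratios did not overlap. ACACA to ACLY went from a median of 0.212 to 0.0855, likewise without overlap in 5 of 5 lines, and SCD to ACLY from 0.530 to 0.256 without overlap in 4 of 5. The ratio of ACSL3 to ACLY was higher after treatment, with medians of 0.148 and 0.322 and no overlap in 4 of 5 lines, PEA2 being the exception. PEA1 counts here with 1 untreated library, at 0.166 against a lowest treated ratio of 0.167. Its set-aside untreated libraries stood at 0.0305 and 0.219. FASN to ACSL3 spanned the widest range, from a median of 11.1 untreated to 0.919 treated, and did not overlap in 5 of 5 lines. How many ratios of other genes separate in this way was not counted, so these counts of lines have no background beside them.

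**Figure D3:**
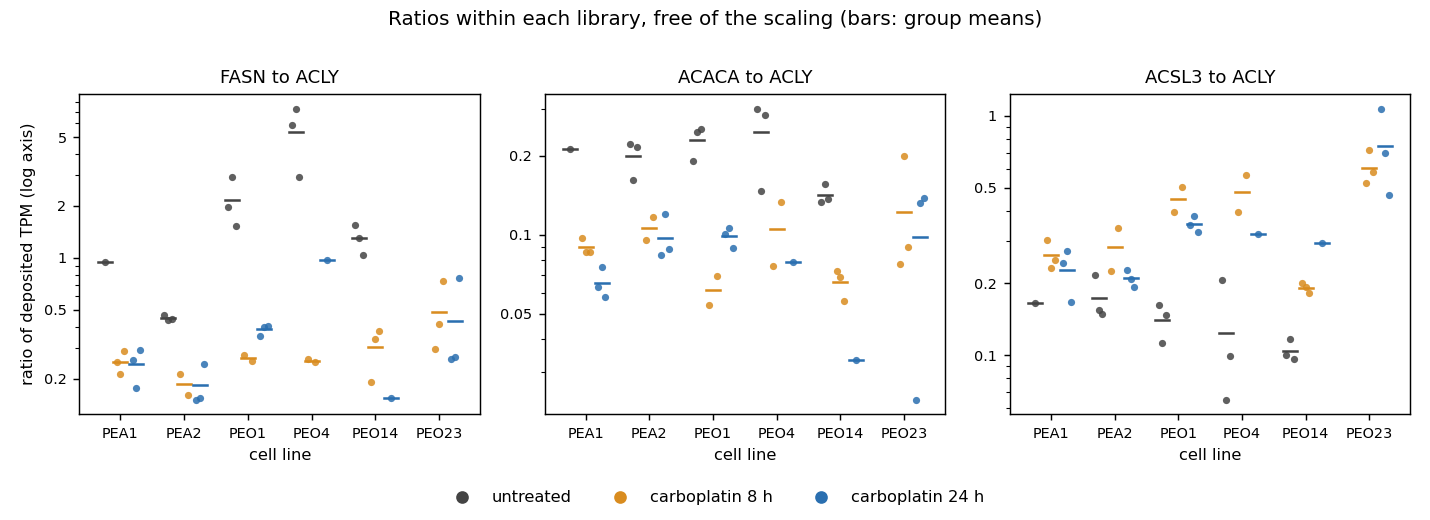
Ratios of deposited TPM within each library, on log axes, for FASN to ACLY, ACACA to ACLY and ACSL3 to ACLY, against cell line. Points are libraries, bars group means. In the 5 lines with kept untreated libraries, untreated FASN to ACLY ratios (0.434 to 7.30 over all) lie above the treated ratios of the same line.

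Between 8 h and 24 h of treatment few members passed the test. No member was called in PEA1, PEA2, PEO1, PEO14 or PEO23 by limma (0.0278%, 0%, 0.217%, 2.52% and 0.395% of all genes called; 0, 0, 2, 4 and 0 members at an unadjusted p under 0.05). Among the values that did not pass were SREBF1 in PEO14, with 6.02, 8.01 and 7.08 at 8 h against 1.78 in 1 library at 24 h (-1.52 ± 0.58, adjusted p = 0.159), and SCD in PEO1, with 13.8 and 11.6 against 34.3, 37.1 and 39.5 (1.47 ± 0.43, adjusted p = 0.166). In PEO4, 3 of 9 were higher at 24 h, against 14.1% of all genes called in either direction and 7.65% called higher: FASN (22.5 and 11.3 against 72.3, 2.10 ± 0.62), SCD (22.2 and 4.82 against 36.4, 1.69 ± 0.58) and FADS2 (9.08 and 13 against 54.3, 2.22 ± 0.51), with adjusted p = 0.0254, 0.0484 and 0.00696. All rest on 1 kept library at 24 h. Without PEO4 8 h replicate 2, FASN (adjusted p = 0.190) and SCD (adjusted p = 0.532) lost the call. The set-aside 24 h libraries of PEO4 held 12.8 and 0.82 deposited TPM of FASN and 2.67 and 0 of SCD, and with all 54 libraries the differences turned to -0.50 and -1.0.

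The second comparison set each resistant line against its sensitive partner. FASN, SREBF1, ACACA and SCD passed in none of the 8 comparisons that kept libraries allowed, while ELOVL6, ACLY and FADS2 differed in some pairs. With replicate number as a block in limma, FASN passed at 8 h, lower in PEA2 than in PEA1 (-1.34, adjusted p = 0.0202) and in PEO23 than in PEO14 (-1.17, adjusted p = 0.0244). The labels tie no replicate number to a day across lines, so this block has no stated basis between lines. Untreated, 1 of 9 members was called in PEA2 against PEA1 (11.5% of all genes) and 5 of 9 in PEO4 against PEO1 (28.4%). At 8 h the counts were 1 of 9 in the PEA pair (16.2%), 0 of 9 in PEO4 against PEO1 (9.91%, with 0 at an unadjusted p under 0.05) and 2 of 9 in PEO23 against PEO14 (14.8%). At 24 h there was 1 of 9 in each pair (18.7%, 21.6% and 5.18%). PEA1 cultures were at far higher passage numbers than PEA2 cultures, which had passages 23 to 27, so passage and line cannot be told apart in that pair. The same holds for PEO4 against PEO1, with passages 6 to 8 against 9 to 11 untreated and 9 to 11 against 12 to 14 treated.

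ELOVL6 was lower in PEA2 than in PEA1 untreated and at 24 h. Untreated values were 1.55, 0.577 and 5.71 rescaled TPM in PEA2 against 15.4 in the 1 kept PEA1 library (-2.45 ± 0.59, adjusted p = 0.00441). The set-aside PEA1 libraries were listed at 2.36 and 0, and with all 54 libraries the difference shrank to -0.28. At 24 h the values were 3.55, 3.86 and 3.24 against 11.1, 14.1 and 13.8, without overlap (-1.62 ± 0.42, adjusted p = 0.00492). At 8 h they were 3.22 and 4.90 against 9.69, 12.6 and 8.67 (-1.17 ± 0.47, adjusted p = 0.0913). In the PEO14 pair ELOVL6 was instead higher in the resistant line at 8 h, with 11.5, 13.4 and 14.8 in PEO23 against 2.64, 3.74 and 3.45 in PEO14 (1.74 ± 0.42, adjusted p = 0.00401). In untreated PEO4 it was lower than in PEO1 (-1.12 ± 0.42, adjusted p = 0.0438), but the values overlapped and the call was lost in 4 of 6 cases when 1 library was left out (adjusted p = 0.110 to 0.231).

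ACLY was lower in resistant lines where it was called. PEO23 held 39.8, 47.5 and 35.8 rescaled TPM at 8 h against 169, 125 and 150.0 in PEO14 (-1.82 ± 0.23, adjusted p = 8.23e-07), and 25.7, 53.9 and 44.7 at 24 h against 111 in 1 library (-1.46 ± 0.32, adjusted p = 0.00498). The set-aside PEO14 libraries at 24 h held 28.9 and 26.1 deposited TPM, and with all 54 libraries that call was lost (-0.59, adjusted p = 0.809). Untreated PEO4 held 61.5, 88.0 and 61.0 against 125, 119 and 130.1 in PEO1 (-0.84 ± 0.23, adjusted p = 0.00525). In both comparisons of 3 against 3 libraries the groups did not overlap. PEA2 at 8 h was lower by a smaller amount (-0.87 ± 0.25, adjusted p = 0.0145), which was lost without PEA1 8 h replicate 2 (adjusted p = 0.0524) or PEA2 8 h replicate 3 (adjusted p = 0.245).

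FADS2 was higher in PEO4 than in PEO1 without drug, with 44.6, 47.0 and 49.6 against 18.0, 13 and 11.5 rescaled TPM (1.69 ± 0.34, adjusted p = 0.000334), and at 24 h, with 54.3 in 1 library against 6.74, 7.56 and 9.31 (2.65 ± 0.48, adjusted p = 0.000194). At 8 h the same pair stood at 9.08 and 13 against 12.6 and 5.07, which overlapped (0.38 ± 0.42, adjusted p = 0.710). Untreated PEO4 also held less ACSL3 than PEO1 (12.7, 5.73 and 6.07 against 20.3, 13.4 and 19.2, -1.08 ± 0.26, adjusted p = 0.00225). Its ACACB was higher (6.44, 7.11 and 1.57 against 0.726, 3.11 and 1.33, 1.08 ± 0.32, adjusted p = 0.0126), with overlap, and that call was lost without PEO1 replicate 1, PEO4 replicate 1 or PEO4 replicate 2 (adjusted p = 0.0743 to 0.101).

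**Figure D4:**
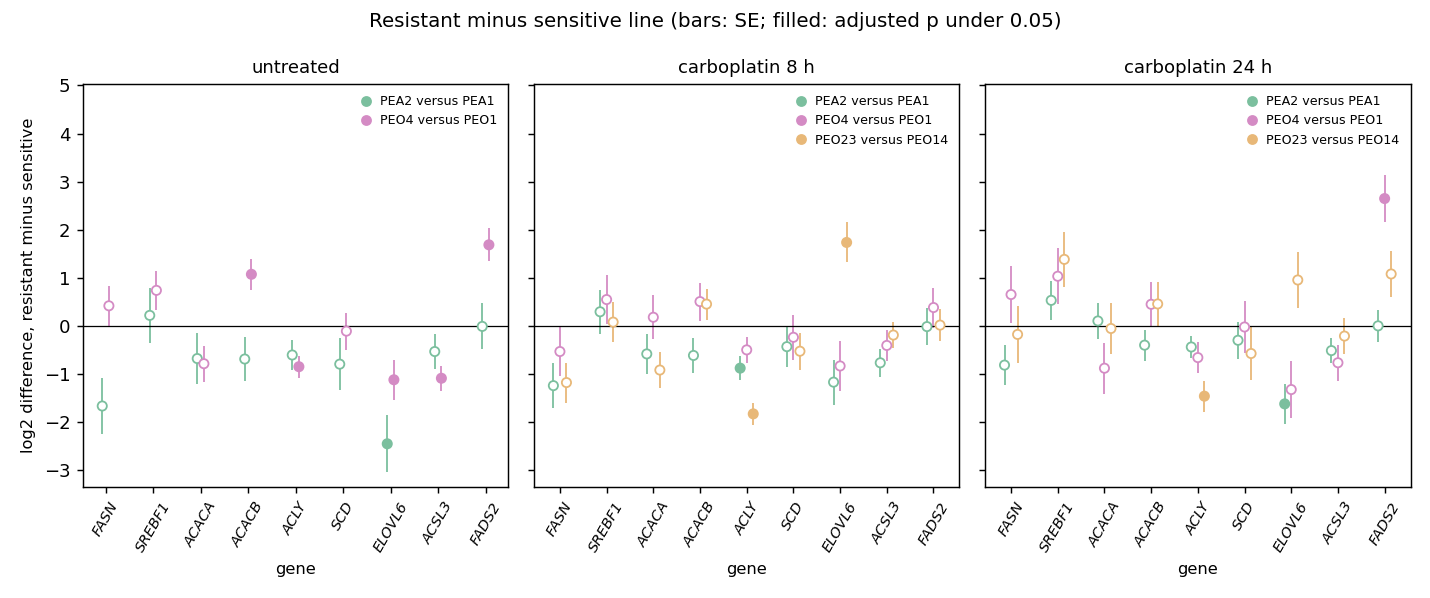
Log2 difference between the resistant and the sensitive line of a pair for each gene, on the log2(rescaled TPM + 1) scale, untreated, at 8 h and at 24 h. Points are estimates, bars the standard error, and filled points passed an adjusted p under 0.05. FADS2 is 2.65 higher in PEO4 at 24 h and ACLY 1.82 lower in PEO23 at 8 h, and FASN and SREBF1 are open in each panel.

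Whether carboplatin acted differently on the members in the lines of a pair was tested as the difference of the changes. None of 36 values passed in the PEA pair or in PEO1 with PEO4 (limma, lowest adjusted p = 0.231, 1 value at an unadjusted p under 0.05; 0.339% and 2.35% of all genes called at 8 h and 0.384% and 1.38% at 24 h). The value at the unadjusted level was FADS2 at 8 h, which fell by 1.30 ± 0.54 (log2) more in PEO4 than in PEO1. For FASN the differences of changes were 0.42 ± 0.75 and 0.85 ± 0.72 in the PEA pair and -0.95 ± 0.66 and 0.23 ± 0.72 in PEO4 minus PEO1. A p above the threshold here does not show that the lines responded alike.

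The untreated PEO23 libraries can be used only with all 54 libraries, rescaled over 392 genes, and are given as values. They listed FASN at 128, 0 and 0 deposited TPM, SREBF1 at 15.3, 0 and 0, ACACA at 36.8, 32.6 and 0, ACLY at 153, 0 and 33.9 and SCD at 90.5, 57.5 and 26.7. A 0 in these libraries can be a failed estimate, since ACLY is also listed at 0 in 1 of them. In that fit 4 of 9 members were called lower in untreated PEO23 than in PEO14 (36.8% of all genes called lower), and 4 and 3 were called higher in PEO23 after 8 h and 24 h than without drug (32.9% and 33.1% of all genes called higher), with overlapping values for FASN, SREBF1 and ACSL3. On the scale of that fit, FASN stood at 65.4, 0 and 0 in the untreated PEO23 libraries and at 11.9, 22.7 and 24.1 at 8 h. The change in PEO23 exceeded that in PEO14 for 3 of 9 members at 8 h (12.7% of all genes called higher) and 3 of 9 at 24 h (33.3%).

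CPT1A, the carnitine palmitoyltransferase that the series title names, takes fatty acids into mitochondria and is inhibited by the malonyl-CoA that ACACA and ACACB make. It was higher in PEA2 than in PEA1 at each time (2.09 ± 0.47, 2.52 ± 0.37 and 1.94 ± 0.33, highest adjusted p = 0.00216), in lines where ACACA differed by -0.67, -0.58 and 0.11 without passing. Mean CPT1A in PEO4 was 42.3 rescaled TPM untreated and 31.6 at 8 h, against 20.2 and 15.7 in PEO1. PEO23 went the other way, with 6.90 to 16.3 at 8 h against 33.6 to 40.8 in PEO14. At 24 h PEO4 held 28.5 in 1 library against a mean of 12.4 in PEO1. PEO23 then had a mean of 9.87 against 22.6 in 1 PEO14 library. After carboplatin CPT1A passed in no line, with differences of -1.10 to 0.43, beside the falls of ACACA above.

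Genes around the 9 members changed in both directions after carboplatin. Of 27 tested other fatty acid enzymes, 6 rose and 2 fell in PEO1 at 8 h, 9 rose and 6 fell in PEO4, 2 rose and 2 fell in PEO14, 1 rose and 2 fell in PEA2, and 1 fell in PEA1. At 24 h 8 rose and 1 fell in PEO1, 4 and 2 in PEO14, 1 and 3 in PEA2, and 2 rose in PEA1 and 1 in PEO4. The dehydratase HACD3, listed under its older symbol PTPLAD1, rose in 4 of 5 lines at 8 h (0.83 ± 0.22 in PEO14 to 2.09 ± 0.25 in PEO1) and in 4 of 5 at 24 h (0.99 ± 0.22 in PEA2 to 1.98 ± 0.31 in PEO14). The elongase ELOVL1 rose in 3 lines at 8 h and 2 at 24 h (0.81 to 1.04), and ME1, which supplies NADPH, rose in PEO1 and PEO4 at 24 h (1.18 and 1.31). OXSM of the mitochondrial synthesis pathway rose in PEO1 and PEO4 at 8 h (2.49 and 4.45). At 24 h against 8 h OXSM was called lower in 1 of 6 lines, and its lowest difference was -4.45. That is the PEO4 rise with its sign turned, as would follow if OXSM was listed in kept PEO4 libraries at 8 h only. Without rescaling, none of the PTPLAD1 and ELOVL1 calls at 8 h was kept, and the sign turned in 1 of 4 PTPLAD1 calls and 2 of 3 ELOVL1 calls. At 24 h 1 of 4 PTPLAD1 calls, 0 of 2 ELOVL1 calls (1 with its sign turned) and 0 of 2 ME1 calls were kept, as was 1 of 2 OXSM calls at 8 h. The share of this list called at 8 h was 29.6% in PEO1, 55.6% in PEO4 and 14.8% in PEO14, against 41.9%, 53.5% and 30.0% of all genes, which is near or below the background. At 24 h it was 33.3%, 3.7% and 22.2% in these lines, against 38.6%, 19.9% and 36.1% of all genes.

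Of 21 regulators of SREBP processing and of acetyl-CoA carboxylase, 4 rose and 5 fell in PEO1 at 8 h, 6 and 5 in PEO4, 2 and 3 in PEO14, 1 and 2 in PEA2, and 1 fell in PEA1. At 24 h 3 rose and 5 fell in PEO1, 6 and 4 in PEO14, 1 and 2 in PEA2, and 3 fell in PEO4 and 1 in PEA1. The share called at 8 h was 42.9% in PEO1, 52.4% in PEO4 and 23.8% in PEO14, near or below that of all genes (41.9%, 53.5% and 30.0%). At 24 h it was 38.1%, 14.3% and 47.6% in these lines, beside 38.6%, 19.9% and 36.1% of all genes. Besides SREBF2, THRSP, a lipogenic cofactor that binds MID1IP1, fell in PEA2, PEO1 and PEO14 at both times, by -1.88 to -2.56 at 8 h and -2.24 to -3.59 at 24 h. PRKAG1, a subunit of the kinase AMPK that phosphorylates acetyl-CoA carboxylase, rose in 3 lines at each time (1.27 to 2.44 and 1.38 to 2.24). The SREBF2 calls at 24 h and all THRSP calls were also made without rescaling, as were 3 of 5 SREBF2 calls at 8 h, whereas none of 3 PRKAG1 calls at 8 h and 1 of 3 at 24 h were.

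Of 12 glycerolipid synthesis genes, 3 rose and 5 fell in PEO1 and in PEO14 at 8 h, 2 rose and 7 fell in PEO4, and 1 rose and 1 fell in PEA2. At 24 h 2 rose and 4 fell in PEO1 and in PEO14, 1 and 2 in PEO4, 1 and 1 in PEA2, and 1 rose in PEA1. The share called at 8 h was 66.7% in PEO1, 75% in PEO4 and 66.7% in PEO14, beside 41.9%, 53.5% and 30.0% of all genes, and at 24 h 50%, 25% and 50% beside 38.6%, 19.9% and 36.1%. DGAT1, which makes triacylglycerol, fell in PEA2, PEO1, PEO4 and PEO14 at both times, by -1.43 ± 0.34 to -3.52 ± 0.38 at 8 h, and each of these calls was also made without rescaling. The acyltransferases AGPAT9 (now GPAT3) at 8 h and GPAM at 24 h rose in PEO1, PEO4 and PEO14 (1.53 to 1.98 and 1.58 to 2.0), and PLIN2, which coats lipid droplets, rose in 4 lines at 24 h (0.87 to 2.48). LPIN3, a phosphatidate phosphatase, fell in 3 lines at 8 h. Of the AGPAT9, GPAM and PLIN2 calls only 1 of 3 GPAM calls was also made without rescaling, with no sign turned.

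Of 12 genes of the sterol list, 5 rose and 4 fell in PEO1 at 8 h, 7 and 2 in PEO4, and 1 and 2 in PEO14, and at 24 h 6 and 2, 1 and 0, and 4 and 1. In PEA1 and PEA2 none was called at either time, with 1 to 3 at an unadjusted p under 0.05. The share called at 8 h was 75% in PEO1 and in PEO4 and 25% in PEO14, beside 41.9%, 53.5% and 30.0% of all genes. At 24 h it was 66.7% in PEO1, 8.33% in PEO4 and 41.7% in PEO14, beside 38.6%, 19.9% and 36.1%. These counts are read as nothing particular to the lists. FDPS, which makes farnesyl diphosphate, rose in PEO1, PEO4 and PEO14 at both times (0.99 to 1.56 at 8 h). IDI1 rose in PEO1 and PEO4 at 8 h (2.11 and 3.48). LSS fell in PEO1 and PEO14 at 24 h (-1.17 and -2.27). Without rescaling no FDPS call was kept and the sign turned in 2 of 3 at 8 h.

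Between the lines of a pair, some of these genes differed more than the members did. SCD5, a second stearoyl-CoA desaturase, was higher in PEA2 than in PEA1 at 8 h and 24 h (2.03 ± 0.46 and 2.40 ± 0.41) and lower in PEO4 than in PEO1 untreated and at both times (-2.21 ± 0.41, -2.24 ± 0.51 and -2.71 ± 0.58). HSD17B8 was higher in PEO4 than in PEO1 by 4.36 ± 0.42 untreated, 4.44 ± 0.51 at 8 h and 3.57 ± 0.59 at 24 h. THRSP was higher in PEO4 by 2.44 ± 0.55, 3.92 ± 0.67 and 3.58 ± 0.78, and DGAT1 by 3.01 ± 0.34, 1.35 ± 0.42 and 3.34 ± 0.48. DGAT1 was instead lower in PEA2 than in PEA1 at 24 h (-0.95). PLIN2 was lower in the resistant line of each pair at 24 h (-1.41, -2.98 and -1.49). In PEO4, PLIN2 changed by only -2.04e-16 from untreated to 24 h, and as little under the other scalings, as it would if not listed in these libraries. If so, the -2.98 sets PEO1 against a gene not listed in PEO4. Without rescaling, the DGAT1 calls in PEA2 at 24 h and in PEO4 at 8 h were lost. So were the SCD5 call in PEO4 at 8 h and the PLIN2 call in PEO23 at 24 h. PEO4 and PEO14 have 1 kept library each at 24 h.

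The genes whose mean log2 levels over the 17 groups were most like those of FASN, by Pearson correlation among 10823 genes with a mean of at least 5 rescaled TPM, were NRDE2 (0.953), ZNF446 (0.952), ARHGDIA (0.947), ATG2A (0.944) and SORBS3 (0.942). For SREBF1 they were NUMA1 (0.970), KIF7 (0.970), LOC100507373 (0.969), ARHGAP23 (0.967) and RFX1 (0.963). None of them is a lipid enzyme of the lists used here. Among the members, SREBF1 came closest to FASN with 0.857, at rank 206, followed by SCD with 0.848 at rank 250 and ACACA with 0.790 at rank 628, while ACSL3 stood at -0.606 and ELOVL6 at -0.077. These correlations describe 17 groups that share lines, libraries and the split between untreated and treated cultures.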

How the data were processed

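RNA from 54 cultures (total RNA, stranded libraries, 75-base read pairs, per the labels' protocols) was deposited by the authors as TPM values for 25435 genes. The submitters' processing notes name bcl2fastq 2.18 and build hg19, while no aligner, annotation or strand setting was given in the sources used here. TPM keeps no read depth, so no interval for counting error can be given. Libraries listing fewer than 12000 genes above 0 were set aside, and the other 42 were rescaled by median ratio over 8287 genes. limma 3.58.1 (R 4.3.3; group means model over all kept libraries, trended variance) was run on log2(rescaled TPM + 1) for the 17989 genes reaching a TPM of 1 in 3 or more libraries, leaving out 28 rows whose symbols had become dates. P-values were adjusted by Benjamini-Hochberg within each of 28 comparisons and called under 0.05. Replicates were cultures from different days, so p-values measure the spread between these cultures. The script was tested on simulated data. The 9 members and the gene lists were chosen with earlier results of these data known. From each list, up to 3 genes per family of comparisons were named, among genes with a mean of at least 5 rescaled TPM, namely those called in the most lines and, on ties, with the largest mean change. A gene that this rule named is not reported here. Alternatives were all 54 libraries, no or upper quartile rescaling, a pseudocount of 0.1, no filter, only the compared groups, a replicate block, and leaving out each library whose group kept another.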

Additional observations from a re-analysis of the deposited data

Results flagged for a closer look

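With all 54 libraries in the fit, which brings in the 3 untreated PEO23 libraries that listed few genes, the change after carboplatin differed between PEO23 and PEO14 by a test of the difference itself for 3 of 9 genes at each time, while 12.7% of all genes at 8 h and 33.3% at 24 h were called in the same direction. At 8 h the change in PEO23 minus that in PEO14 was 4.19 ± 1.27 (SE, log2) for FASN (limma, adjusted p = 0.0252), 3.40 ± 0.90 for SREBF1 (adjusted p = 0.0121) and 1.78 ± 0.57 for ACACB (adjusted p = 0.0338). At 24 h it was 5.24 ± 1.27 for FASN (adjusted p = 0.00250), 3.81 ± 0.90 for SREBF1 (adjusted p = 0.00215) and 2.27 ± 0.57 for ACACB (adjusted p = 0.00330). FASN and SREBF1 were each listed at 0 in 2 of the 3 untreated PEO23 libraries. Without those libraries the difference could not be computed.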

How the results depend on the processing

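Of 46 called values of the members, those kept under each of the 7 alternatives that leave no single library out were FASN in PEO1 and PEO4 at 8 h and PEO14 at 24 h, SREBF1 in PEO4 at 8 h and PEO14 at 24 h, ACACA in PEO14 at 24 h, and FADS2 in PEO4 against PEO1 at 24 h. With all 54 libraries the called counts went from 6 to 0 (resistant against sensitive, untreated), 3 to 0 (the same at 8 h), 3 to 4 (the same at 24 h), 18 to 5 (8 h against untreated), 13 to 8 (24 h against untreated) and 3 to 0 (24 h against 8 h), and the PEO4 differences of 24 h against 8 h turned to -0.50 for FASN and -1.0 for SCD. With only the compared groups in the fit they were 2 untreated, 6 at 8 h and 10 at 24 h between lines, 0 for 24 h against 8 h, and 14 and 13 at 8 h and 24 h against untreated, where 8 of 18 and 5 of 13 calls were lost and 4 and 5 others gained. Without rescaling, 4 calls at 8 h and 3 at 24 h against untreated were lost, and 6 and 4 others gained. ACSL3 then turned to -0.50 in PEO1 at 8 h and -0.20 in PEO14 at 24 h, and ELOVL6 to -0.24 in PEO4 at 8 h. The cause was not tested. Leaving out 1 library gave 4 to 6, 2 to 4 and 3 to 4 calls between lines (untreated, 8 h, 24 h), 15 to 20 at 8 h and 12 to 14 at 24 h against untreated, 1 to 3 for 24 h against 8 h and 0 to 0 for the differences of changes. The single kept libraries of untreated PEA1, 24 h PEO4 and 24 h PEO14 were never left out, since their groups would be empty. These counts therefore cannot show how far calls that use those groups, such as those in PEO14 at 24 h, rest on 1 library. The replicate block raised the 8 h calls between lines from 3 to 6, adding FASN in PEA2 (-1.34, adjusted p = 0.0202) and PEO23 (-1.17, adjusted p = 0.0244), and removed SREBF1 in PEA2 at 8 h (adjusted p = 0.0546). In their deviations from group means, same-numbered 8 h and 24 h libraries correlated from -0.25 to 0.41 over 10 pairs and differently numbered ones from -0.33 to 0.25. PEA2 and PEO1 have 2 kept libraries at 8 h, whose deviations mirror each other, so correlations there repeat with the sign turned. The ranges therefore cannot decide whether the numbers pair the cultures. The labels tie no number to a day across lines or to untreated cultures, so the numbers were not taken to pair them. The 8 h and 24 h cultures of a line and number shared their passage in 18 of 18 cases, and there the block kept 3 calls. What depth limits could not be measured from TPM.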
